A study of Mus musculus with 31 samples.

Results

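The genes described here are 43 genes that copy DNA, out of 48881 genes in the count tables. They were chosen by name from the pathway, with earlier results of these data known. Each of the 43 symbols matched 1 gene identifier. They fall into 9 roles: the MCM helicase, origin licensing, helicase activation, polymerases and primase, the sliding clamp and its loader, single-strand binding, Okazaki fragment processing, nucleotide supply and chromatin copying. All 31 libraries are RNA-seq of C57BL/6 mouse cells. Precursors were DN1 and DN3 thymocytes, which precede CD4 and CD8 expression, with DN3 the stage at which the T cell receptor beta chain is rearranged. They were grown on OP9-DL1 stromal cells, which present a Notch ligand, with IL-2, IL-7 and SCF. Every culture carried R26-CreERT2, a Cre recombinase switched on by 4-hydroxytamoxifen (4-OHT), and a R26-stop-tdTomato reporter of Cre activity. Floxed cultures also carried E2Af/f and HEBf/f alleles, and control cultures did not, so both genotypes met Cre and 4-OHT. E2A, encoded by Tcf3, and HEB, encoded by Tcf12, are E proteins, transcription factors of early T cells. Libraries of day 4 were made before 4-OHT and without a tdTomato sort, while those of days 5 and 7 came from sorted tdTomato-positive cells. For DN1 day 7 the sample labels place 4-OHT on day 7, against day 4 in the series design, and the latter was followed. Group 2 innate lymphoid cells (ILC2) came straight from mice: from thymus and lung of E2Af/f HEBf/f mice with plck-Cre, a Cre under the proximal Lck promoter of early T cells (dKO), and from lung of mice with a plck-Id1 transgene, which makes an inhibitor of E proteins. The genotype labels of Id1 lung replicates 2 and 3 read plck-Id2 and plck-Id3, and these were grouped by title. Each of the 12 culture groups, thymic ILC2 and dKO lung has 2 libraries, and Id1 lung has 3.

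A cell copies its genome once per cycle in steps that these genes carry out. Origins are bound by the origin recognition complex, and Cdc6 and Cdt1 load the ring of MCM proteins there. Cdc45 and the GINS complex join the ring to make the working helicase, primase and polymerases lay down DNA held by the clamp Pcna, and Fen1 and Lig1 join the lagging strand. Many of these genes are transcribed under E2F factors as cells leave G1. In the thymus, DN3 cells that pass selection for a T cell receptor beta chain are known to divide rapidly. In bulk RNA, fewer cells in cycle and less of a transcript per cell cannot be told apart.

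Totals ranged from 3695522 to 13065445 counts per library, and in the cultures the lowest count of any of the 43 genes was 13. Tcf12 RNA was 459 to 474 CPM (counts scaled to a fixed library total) in floxed DN3 libraries on day 4 and 146 to 165 on day 7, against 513 to 515 in day 7 controls. On day 5 it was still at 306 to 334 CPM in floxed against 479 to 503 in control DN3 libraries. For Tcf3, the day 7 values were 14.5 to 32.0 CPM in floxed and 95.1 to 102 in control DN3 libraries. Before 4-OHT, on day 4, they were 50.3 to 92.4 against 87.1 to 106, and on day 5 they were 48.2 to 79.1 against 108 to 111. In DN1 on day 7, Tcf12 was at 103 to 110 CPM in floxed against 273 to 285 in control libraries. Genotype went with sex: Xist, made in females, was at 588 to 1901 CPM in floxed and 4.55 to 71.4 CPM in control libraries, so the 2 cannot be told apart. The 10 stromal markers summed to 1588 to 8360 CPM on day 4 and 19.6 to 130 CPM on days 5 and 7. The 10 skeletal muscle markers summed to 8926 CPM in DN1 floxed b on day 7 and to 10.5 to 535 CPM in the other cultures. Mitochondrial ribosomal RNA took 52.0% and 54.8% of counts in thymic ILC2, 12.1% to 46.5% in lung and 0.702% to 1.80% in the cultures.

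The sequences that carry matches to the E2F recognition motif are shown first, because the motif was more frequent here than over all genes. RefSeq promoter windows (GRCm38.p6, 250 bases before to 50 after the gene start) were given for 36 of the 43 genes. The motif was searched on both strands as TTTCCCGC, TTTCGCGC, TTTGCCGC or TTTGGCGC, and overlapping matches were counted apart. It was found in 14 of 36 (38.9%) of these genes, against 704 of 27025 (2.61%) of all genes with a window. Windows with 2 or more matches were found for 5 of the 36 (13.9%) against 29 genes (0.107%) in all. An E box, the short motif that E proteins bind (CAGGTG or CAGCTG), was found in 9 of 36 (25%) against 35.9% of all, and CCAAT in 23 of 36 (63.9%) against 41.1%. Divided by the DN3 results given further on, the E2F motif was found in 10 of 24 genes lower in floxed cultures on both days and 2 of 7 lower on neither, the E box in 5 of 24 and 4 of 7, and CCAAT in 16 of 24 and 4 of 7. These counts are small and are given as a description. The windows of 4 genes with 2 or more E2F matches whose RNA was lower in floxed DN3 cultures on both days follow, on the gene's strand, with the matches in capitals. They are Mcm5 (chr8:75109259-75109558, plus strand), Mcm6 (chr1:128359656-128359955, minus strand), the second of the windows given for Mcm7 (chr5:138171834-138172133, minus strand) and Rfc3 (chr5:151651159-151651458, minus strand). In Mcm5 and Mcm6, matches on opposite strands overlap to form 1 run of capitals.
Mcm5: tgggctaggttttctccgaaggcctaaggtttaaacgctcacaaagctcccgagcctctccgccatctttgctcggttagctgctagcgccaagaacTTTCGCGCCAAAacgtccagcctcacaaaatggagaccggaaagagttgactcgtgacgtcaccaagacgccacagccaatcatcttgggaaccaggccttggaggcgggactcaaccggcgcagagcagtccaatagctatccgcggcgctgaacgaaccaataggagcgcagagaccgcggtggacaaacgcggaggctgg
Mcm6: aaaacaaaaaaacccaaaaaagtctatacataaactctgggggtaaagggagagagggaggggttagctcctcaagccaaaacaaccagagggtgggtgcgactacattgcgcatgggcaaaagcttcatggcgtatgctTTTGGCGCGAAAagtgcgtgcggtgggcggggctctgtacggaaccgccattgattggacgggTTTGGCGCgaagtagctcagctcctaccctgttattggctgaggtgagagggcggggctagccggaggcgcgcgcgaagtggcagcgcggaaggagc
Mcm7: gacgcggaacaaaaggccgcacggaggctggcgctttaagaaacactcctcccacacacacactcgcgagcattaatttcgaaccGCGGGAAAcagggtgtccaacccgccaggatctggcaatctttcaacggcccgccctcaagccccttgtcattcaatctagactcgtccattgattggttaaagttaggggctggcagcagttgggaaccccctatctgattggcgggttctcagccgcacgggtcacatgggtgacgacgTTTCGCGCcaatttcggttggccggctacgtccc
Rfc3: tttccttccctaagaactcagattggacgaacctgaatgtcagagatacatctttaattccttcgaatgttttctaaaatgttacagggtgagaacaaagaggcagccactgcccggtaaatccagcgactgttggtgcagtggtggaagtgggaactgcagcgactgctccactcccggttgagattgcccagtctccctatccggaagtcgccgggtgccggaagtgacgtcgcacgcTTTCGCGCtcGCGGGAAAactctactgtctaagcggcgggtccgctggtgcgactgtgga
The matches lay at bases 98 to 105 and 102 to 109 of the Mcm5 window, and at bases 141 to 148, 145 to 152 and 204 to 211 of that of Mcm6. Those of Mcm7 were at bases 86 to 93 and 267 to 274, and those of Rfc3 at bases 241 to 248 and 251 to 258. A match is a likeness of letters, and binding was not measured here.

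In control cultures, per kilobase of exon, the most abundant of the 43 was Dut, which removes dUTP so that uracil is not built into DNA, at 314 CPM per kilobase over the 6 control groups. Lig1, the ligase of the lagging strand, followed at 179, and then Mcm3 at 125, Mcm4 at 119 and Pcna at 110. At the low end stood Pole, the catalytic subunit of the leading-strand polymerase, at 1.93 CPM per kilobase, below Chaf1b at 4.79, Prim2 at 5.20, Pola2 at 5.36 and Orc1 at 5.70. These are means of group means and no test was made between genes.

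Summed over the 43 genes, DN1 control libraries held 4998 and 5016 CPM on day 4, 8261 and 8178 on day 5, and 6305 and 6460 on day 7. DN3 control libraries held 8538 and 8373 CPM on day 4, 10168 and 10358 on day 5, and 6205 and 6540 on day 7. Floxed DN3 libraries were at 7954 and 7647 CPM on day 4, 7673 and 6661 on day 5, and 4419 and 4125 on day 7. The floxed libraries lay below the controls on each of the 3 days in DN3, and the mean floxed sum was 0.698 of the control mean on day 5 and 0.670 on day 7. In DN1 the floxed sums were 5353 and 5587 CPM on day 4, 8203 and 7995 on day 5, and 5807 and 5361 on day 7, which is 0.985 of the control mean on day 5 and 0.875 on day 7. Early T markers (7 genes) summed to 573 to 650 CPM in DN3 floxed libraries on day 7 against 2500 to 2526 in controls, and ILC2 markers (10 genes) stood at 1053 to 1263 CPM against 226 to 294. Their part in the replication result was not tested.

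**Figure D1:**
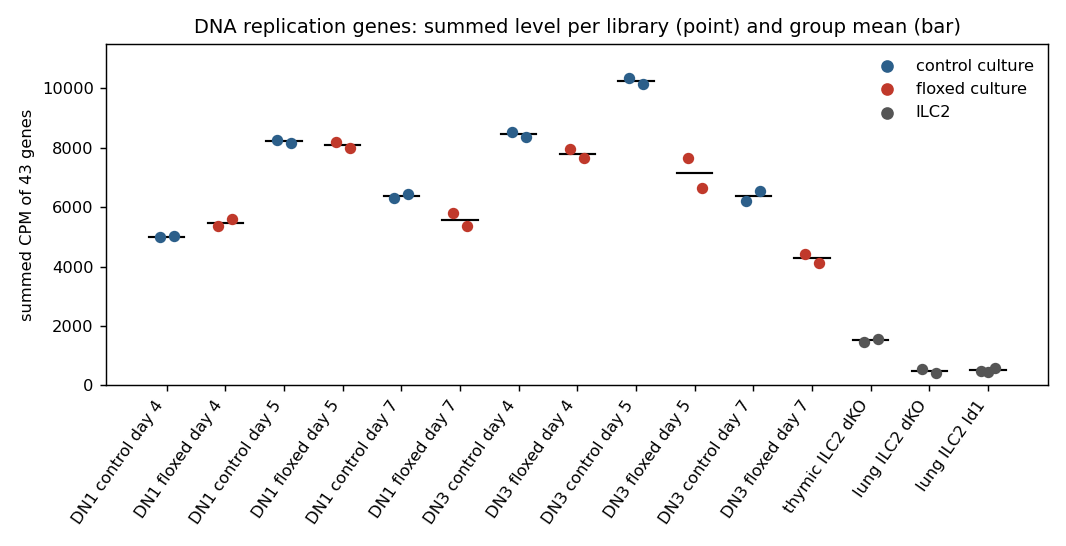
Summed CPM (y axis, linear) of the 43 replication genes in each of the 31 libraries (points) by group (x axis), with group means as bars. DN3 floxed cultures sit below DN3 controls on days 4, 5 and 7, and the ILC2 libraries hold 420 to 1571 CPM.

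The first question was whether the genes differed between floxed and control cultures before 4-OHT. None of the 43 passed at an adjusted p under 0.05 (edgeR quasi-likelihood test, Benjamini-Hochberg over 15172 genes) in either precursor on day 4. Of all genes tested, 0.0461% were lower and 0.0593% higher in floxed DN1, and 0.250% lower and 0.191% higher in floxed DN3. At an unadjusted p under 0.05 the counts of the 43 were 3 in DN1 and 0 in DN3. DESeq2 also called 0 in both. The median log2 change (floxed minus control) of the 43 was 0.12 in DN1 and -0.09 in DN3, beside -0.02 and 0.02 over all genes. The 12 genes followed in every comparison (Mcm2, Mcm5, Cdc6, Cdt1, Cdc45, Pcna, Pola1, Pole, Lig1, Rrm2, Tyms and Uhrf1) lay between 0.03 (Tyms) and 0.26 (Cdt1) in DN1. In DN3 they lay between -0.32 (Mcm2) and 0.08 (Lig1).

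On days 5 and 7, after 4-OHT, most replication genes were called lower in floxed than in control DN3 cultures. Their summed level was already somewhat lower on day 4, as given above, and the change from day 4 to day 5 was not tested. On day 5, 1 day after 4-OHT, 33 of 43 were lower and 0 higher, where 5.20% of all genes were lower and 4.56% higher. On day 7, 28 were lower and 0 higher, where 12% of all genes were lower and 12.9% higher. Medians were -0.58 and -0.56 log2 on these days, beside 0.00 and -0.01 over all genes. The 28 genes of day 7 had all been lower on day 5 also. Mcm2, Mcm3, Pcna, Pold1 and Chaf1b were lower on day 5 alone, and 10 genes passed on neither day: Mcm4, Orc1, Orc6, Gins4, Pola2, Pole2, Rfc2, Rpa1, Rpa3 and Fen1. Both floxed libraries lay below both controls for 38 of the 43 genes on day 5 and 39 on day 7, against 21.4% and 36.9% of all genes. Since floxed and control libraries of a day are compared each time with 2 against 2, the count moved when a library was left out: 15 without DN3 floxed b, 20 without control c, 23 without control d and 24 without floxed a on day 5, and 19 to 26 on day 7. The lone library left in a group is then assumed to vary like the others.

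**Figure D2:**
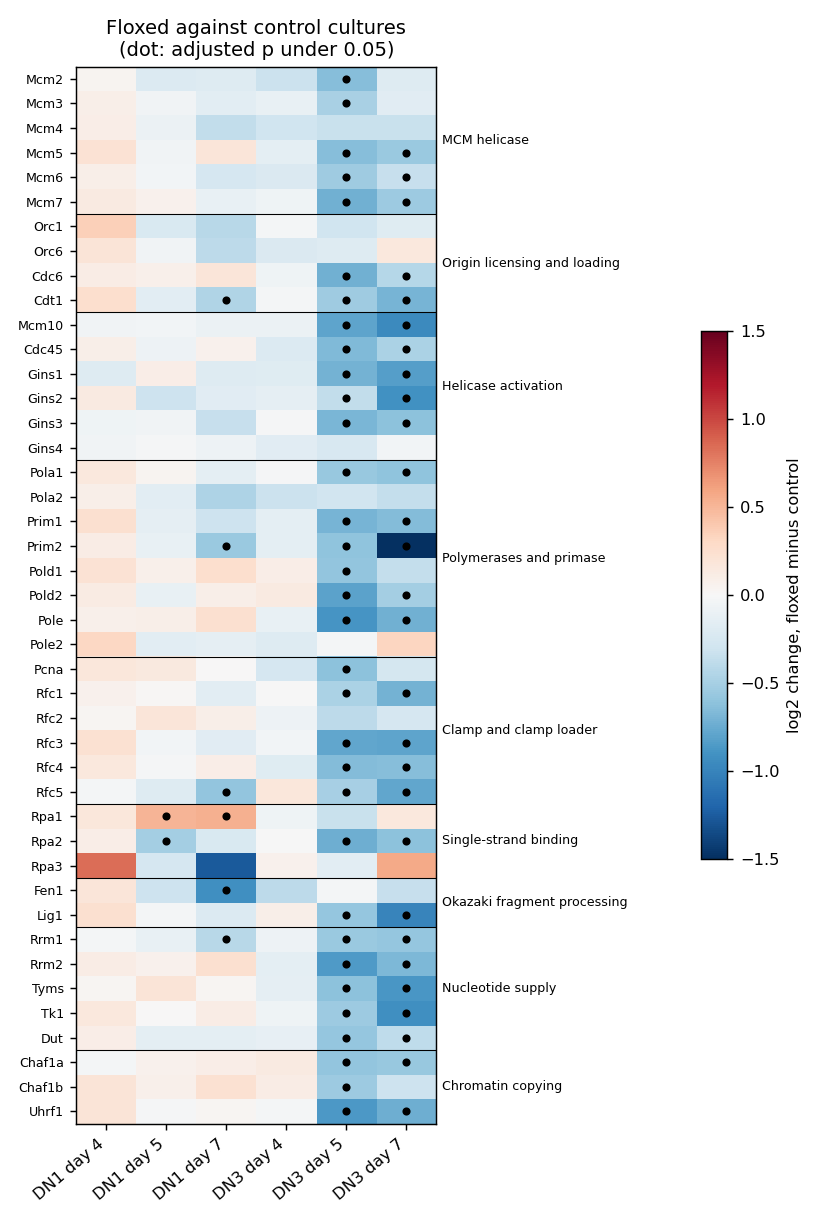
log2 change (floxed minus control) of the 43 genes (rows, by role) in DN1 and DN3 cultures on days 4, 5 and 7 (columns), with a dot where the adjusted p was under 0.05. Blue fills the DN3 day 5 and day 7 columns with 33 and 28 dots, while DN1 day 7 holds 6 dots. The scale ends at -1.5 and 1.5.

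The helicase ring followed this pattern in part. Mcm7, a subunit of the ring, was at 481 and 454 CPM in floxed DN3 on day 5 against 749 and 728 in controls, a log2 change of -0.72 ± 0.10 (SE; n = 2 per group; edgeR adjusted p = 6.6e-05). By day 7 it was at 254 and 230 CPM against 336 and 404 (-0.55 ± 0.10; adjusted p = 0.00031, edgeR). Both floxed libraries stood below both controls on each day. Mcm5 was at 260 and 228 CPM against 375 and 351 on day 5, and at 149 and 137 against 215 and 226 on day 7, with changes of -0.63 and -0.56. Mcm6 changed by -0.54 and -0.34. For Mcm2 the change was -0.64 on day 5, with floxed libraries at 276 and 214 CPM against 332 and 397, and -0.19 ± 0.16 on day 7, which did not pass. Mcm3 likewise passed on day 5 (-0.49) and not on day 7 (-0.17). Mcm4 had changes of -0.33 and -0.34 with standard errors of 0.17, and passed on neither day.

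Among licensing genes, the loaders moved and the origin recognition genes did not pass. Cdc6 was at 110 and 90.5 CPM in floxed libraries on day 5 against 161 and 154 in controls, and at 68.9 and 70.3 against 95.9 and 100.1 on day 7. The changes of -0.72 ± 0.10 and -0.43 ± 0.10 passed on both days. Cdt1, which brings the ring to the origin with Cdc6, fell by 0.53 and then by 0.69 on the log2 scale. Orc1 had values of -0.30 and -0.18, and Orc6 of -0.20 and 0.16, and the floxed and control libraries of Orc6 overlapped on both days. Of the genes that switch the helicase on, 5 of 6 were lower on both days. Mcm10, needed for origin firing, was at 58.2 and 49.2 CPM against 92.3 and 85.9 on day 5 and at 29.4 and 24.2 against 55.3 and 53.2 on day 7 (-0.79 ± 0.12 and -0.95 ± 0.12). Cdc45 changed by -0.66 and -0.47, Gins1 by -0.71 and -0.82, Gins2 by -0.37 and -0.91, and Gins3 by -0.68 and -0.61. Gins4, a subunit of the same complex as the other three, was at 33.9 and 30.4 CPM against 37.7 and 34.7 on day 5 and at 23.7 and 24.5 against 25.2 and 26.8 on day 7 (-0.24 and -0.04), and did not pass.

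Polymerase and primase genes gave the largest single change. Prim2, the large primase subunit, was at 33.6 and 23.9 CPM against 43.4 and 40.3 on day 5 (-0.60 ± 0.18). On day 7 it was at 17.1 and 10.8 CPM against 40.05 and 41.5, a log2 change of -1.49 ± 0.20 (edgeR adjusted p = 1.6e-05). Control levels of Prim2 were alike on both days, and the floxed libraries were lower on the later one. Its partner Prim1 changed by -0.70 and -0.64. Pole was at 21.1 and 20.2 CPM against 37.9 and 35.3 on day 5, the largest change of that day at -0.89 ± 0.18, and changed by -0.72 on day 7. Pola1, the catalytic subunit of the priming polymerase, changed by -0.57 and -0.60, and Pold2 by -0.80 and -0.51. Pold1 passed on day 5 (-0.59) and not on day 7 (-0.36). The accessory subunits Pola2 (-0.28 and -0.35) and Pole2 (-0.03 and 0.32) passed on neither day. Pola1 lies on chromosome X, and sex differed between the genotypes.

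In the clamp group, Pcna was at 326 and 252 CPM in floxed libraries on day 5 against 364 and 483 in controls (-0.61 ± 0.13), with part of its reads perhaps counted under a pseudogene (given at the end). On day 7 the values were 185 and 175 CPM against 218 and 235, and the change of -0.27 ± 0.14 did not pass. Subunits of the loader that opens the clamp were lower on both days in 4 of 5 cases. Rfc3 fell from 109 and 91.4 CPM in controls to 64.4 and 57.7 in floxed libraries on day 5, and from 66.9 and 74.2 to 36.7 and 40.9 on day 7 (-0.78 and -0.79). Rfc5 changed by -0.50 and -0.78, Rfc4 by -0.65 and -0.64, and Rfc1, the large subunit, by -0.47 and -0.71. Rfc2 had values of -0.39 and -0.25 and did not pass. The 3 subunits of the single-strand binding complex RPA differed: Rpa2 was lower on both days (-0.73 and -0.62), while Rpa1 had values of -0.34 and 0.15 and Rpa3 of -0.16 and 0.57. Rpa3 was near the low end of the range, at 4.71 to 16.8 CPM in these 8 libraries, and its standard errors were 0.67 and 0.71.

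Lig1 showed one of the clearest differences of day 7. Its floxed libraries were at 388 and 373 CPM against 743 and 841 in controls (-0.99 ± 0.11; edgeR adjusted p = 1.8e-06), after 809 and 762 against 1150 and 1103 on day 5 (-0.58 ± 0.11). Fen1, which trims the flap before ligation, had changes of -0.03 and -0.34 with standard errors of 0.27. Its libraries overlapped on day 5, where the controls were at 83.6 and 138 CPM. All 5 genes of nucleotide supply were lower on both days. Rrm2, the cycle-regulated subunit of ribonucleotide reductase, was at 253 and 215 CPM against 385 and 420 on day 5 and at 134 and 141 against 218 and 241 on day 7 (-0.84 ± 0.11 and -0.67 ± 0.11). Tyms, which makes dTMP, was at 127 and 113 against 175 and 178 CPM and then at 61.6 and 60.0 against 112 and 121 (-0.62 and -0.87). Rrm1, the other subunit of the reductase, changed by -0.56 and -0.57, Tk1, a thymidine kinase, by -0.54 and -0.92, and Dut by -0.58 and -0.38.

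Of the genes that rebuild chromatin behind the fork, Uhrf1 had the second largest change of day 5. Uhrf1, which brings the maintenance DNA methyltransferase to new DNA, was at 365 and 296 CPM in floxed libraries against 554 and 594 in controls (-0.86 ± 0.10; edgeR adjusted p = 2.5e-05). On day 7 it was at 189 and 164 CPM against 304 and 312 (-0.74 ± 0.10). Chaf1a, of the factor that places histones on new DNA, changed by -0.59 and -0.57. Chaf1b passed on day 5 (-0.55) and not on day 7 (-0.31). The change of the floxed minus control difference from day 4 to day 7 was itself tested in DN3, and 17 of the 43 genes were lower and 0 higher, where 6.28% of all genes were lower and 6.02% higher. The largest were Prim2 (-1.35), Lig1 (-1.07), Rfc5 (-0.96), Mcm10 (-0.86), Tk1 (-0.86), Gins2 (-0.78), Rfc3 (-0.75), Tyms (-0.73), Chaf1a (-0.71), Uhrf1 (-0.70), Rfc1 (-0.70) and Cdt1 (-0.67). The count was 9 without floxed b of day 4, control d of day 4 or control d of day 7, and 10 without floxed b of day 7. Day 4 libraries also held more stromal RNA, as given above.

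**Figure D3:**
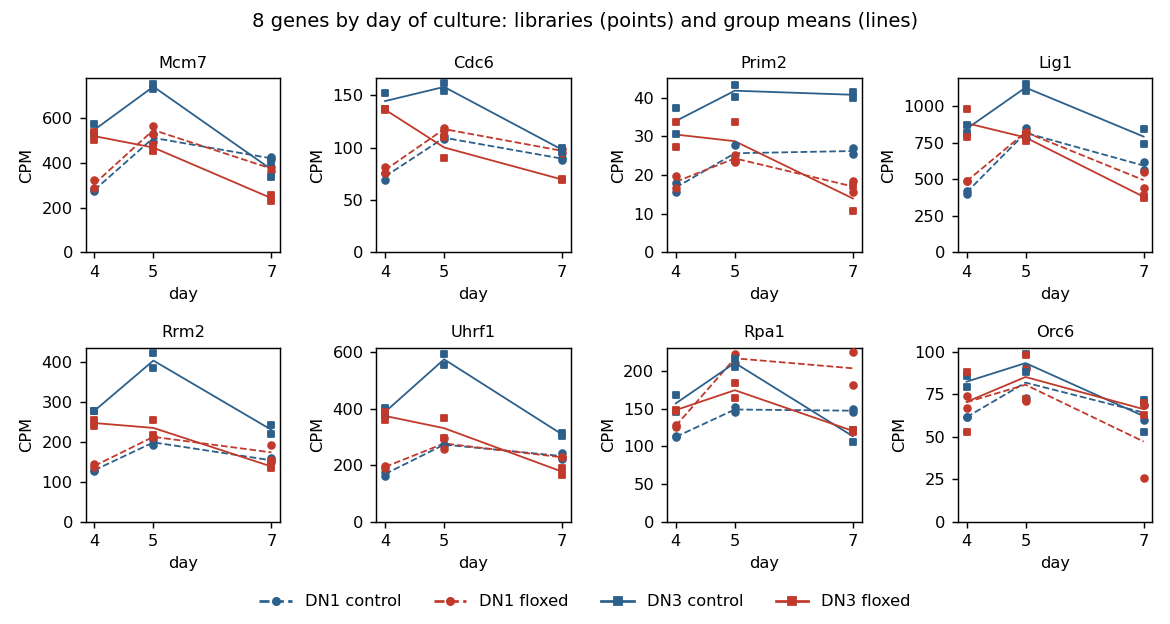
CPM (y axes, linear from 0) of 8 genes on days 4, 5 and 7 in DN1 (circles, dashed) and DN3 (squares, solid), floxed in red and control in blue, with points for libraries and lines for group means. DN3 floxed lines for Mcm7, Cdc6, Prim2, Lig1, Rrm2 and Uhrf1 run below DN3 controls from day 5, while Orc6 points overlap and Rpa1 is higher in floxed DN1, at 182 and 225 CPM against 150 and 145 on day 7.

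DN1 cultures showed few differences in these genes between genotypes. On day 5, Rpa1 was higher and Rpa2 lower in floxed cultures, 1 gene each way, where 2.56% of all genes were higher and 2.46% lower. Rpa1 was at 223 and 211 CPM in floxed against 146 and 152 in control libraries (0.51 ± 0.11; edgeR adjusted p = 0.0096). Rpa2 was at 269 and 245 CPM against 328 and 384 (-0.50 ± 0.10; edgeR adjusted p = 0.0041). Neither pair of groups overlapped, but 1 gene of 43 each way is a share near that of all genes. Rpa1 did not pass when any 1 of the 4 libraries was left out, and the count of genes was 0 without floxed b or control d and 1 without floxed a or control c. The 12 followed genes lay between -0.20 (Mcm2) and 0.19 (Tyms). The median of the 43 was -0.04, beside 0.00 over all genes.

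On day 7, 5 of the 43 genes were lower and 1 higher in floxed DN1, shares below those of all genes for the higher direction (12.2%) and close to it for the lower (10.3%). Fen1 was at 98.4 and 41.6 CPM in floxed against 136 and 140 in control libraries (-0.92 ± 0.27). Rfc5 was at 64.1 and 55.6 CPM against 87.0 and 100.5 (-0.59 ± 0.12), Prim2 at 18.4 and 15.7 against 25.5 and 27.0 (-0.56 ± 0.19), and Cdt1 at 159 and 118 against 199 and 195 (-0.46 ± 0.12). Rrm1 changed by -0.41. Rpa1 was again higher, with a change of 0.53 ± 0.11. The remaining followed genes ran from -0.21 (Lig1) to 0.24 (Rrm2 and Pole), with Mcm2 at -0.19, Mcm5 at 0.18, Cdc6 at 0.18, Cdc45 at 0.06, Pcna at 0.01, Pola1 at -0.15, Tyms at 0.02 and Uhrf1 at 0.03. These counts moved with single libraries: 1 gene passed without DN1 floxed b, the library with muscle RNA, 20 without floxed a (15 lower and 5 higher), 2 without control c and 4 without control d. Replicates a and b of this group agreed least of the day 7 pairs, with a Pearson correlation of log2 CPM of 0.9605 across genes against 0.989 to 0.993. With the 4 libraries fitted alone, 0 genes passed. For that fit and those with a library left out, the shares of all genes called are not given here. The counts can therefore not be set beside such a share. The median log2 change of the 43 was -0.15 with all libraries, -0.19 without floxed a and -0.11 without floxed b. The change of the difference from day 4 to day 7 passed for 3 genes, all lower, where 3.61% of all genes were lower and 4.17% higher: Orc1 (-0.77), Cdt1 (-0.71) and Rfc5 (-0.56). Without DN1 floxed b of day 7 that count was 0, and without floxed a of day 7 it was 14. It was also 0 without floxed b or control d of day 4, and 1 without floxed a of day 4 or control d of day 7.

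Whether DN3 responded more than DN1 was tested as the difference between the floxed minus control changes. On day 5, 7 genes were lower in DN3 relative to DN1 and 0 higher, where 0.685% of all genes were lower and 0.679% higher. They were Rrm2 (-0.91), Uhrf1 (-0.85), Rpa1 (-0.84), Tyms (-0.82), Cdc6 (-0.79), Mcm7 (-0.79) and Mcm10 (-0.75). On day 7 there were 15, again with 0 higher, where 3.81% of all genes were lower and 3.98% higher. The largest were Tk1 (-1.03), Pole (-0.96), Prim2 (-0.93), Rrm2 (-0.91), Tyms (-0.89), Mcm10 (-0.86), Lig1 (-0.78), Uhrf1 (-0.77), Gins2 (-0.74), Mcm5 (-0.74), Chaf1a (-0.68) and Cdc6 (-0.60). For Rrm2, Tyms, Uhrf1, Cdc6 and Mcm10 the precursors differed on both days. Leaving out 1 library gave 4 (without DN3 floxed b) to 8 genes on day 5. On day 7 it gave 7 without DN3 control d, 8 without DN3 floxed b, DN1 control c or DN1 control d, and 12 without DN1 floxed b. Without DN1 floxed a it gave 22, of which 19 were lower and 3 higher, and with no filter on low counts 9 were lower and 2 higher.

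The 46 other replication and S phase genes, the 17 E2F and Rb family genes and the 20 mitosis genes were set beside the 43. In DN3 on day 5, 18 of 46, 6 of 17 and 11 of 20 were lower and 0 higher, with medians of -0.37, -0.38 and -0.39. Of all genes, 5.20% were lower and 4.56% higher on that day. On day 7, mitosis genes stood further down than replication genes: 19 of 20 were lower, with a median of -0.96 against -0.56 for the 43. Of the 46, 24 were lower and 2 higher on that day, with a median of -0.42. Mki67, a marker of cycling cells, was at 338 ± 7.69 CPM (SD, n = 2) in floxed against 490 ± 18.7 in control libraries on day 5 and at 180 ± 8.92 against 365 ± 46.4 on day 7 (-0.60 and -0.95 log2). Top2a, which untangles chromosomes, changed by -0.53 and -0.75, Kif11, a spindle motor, by -0.48 (not passing) and -1.21, and Cenpf by -0.32 and -1.43. Whether the lists differed from each other was not tested.

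Some genes of the E2F and Rb list differed in DN3, and those named here do not stand for the whole list. E2f1, an activator of S phase genes, was at 60.4 ± 4.32 CPM in floxed against 112 ± 12.4 in control libraries on day 5 (-0.96), and its change of -0.28 on day 7 did not pass. E2f2 was at 101 ± 16.1 against 221 ± 0.525 CPM and then at 51.0 ± 4.41 against 146 ± 0.666 (-1.19 and -1.45). E2f7, a repressor of the same targets, changed by -1.56 and -1.11, and Mybl2 by -0.87 and -0.88. Rbl2, a pocket protein of resting cells, was the 1 gene of this list that was higher, on day 7 (0.61). In DN1, 9 mitosis genes were lower on day 7 and 0 on day 5. Of the E2F and Rb list, 4 were lower and 1 higher on day 7. Of all genes, 2.46% were lower on day 5, and 10.3% were lower and 12.2% higher on day 7. The DN1 day 7 calls of the replication genes moved with single libraries, and this was not followed for these lists. E2f7 was lower in floxed DN1 on both days too (-1.19 and -0.93).

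**Figure D4:**
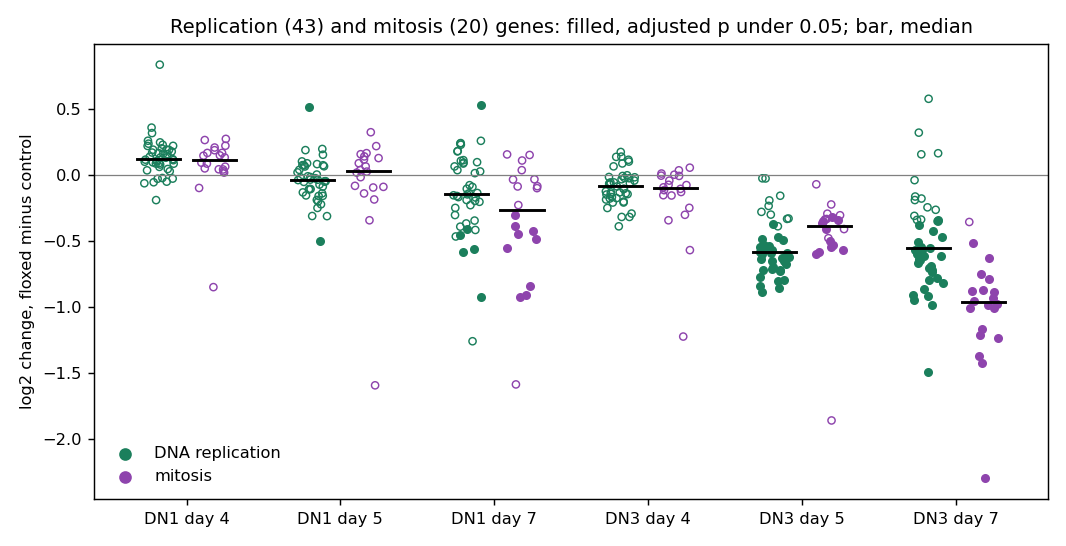
log2 change (y axis, floxed minus control) of the 43 replication genes (green) and 20 mitosis genes (purple) in the 6 culture comparisons (x axis), filled where the adjusted p was under 0.05, with medians as bars. In DN3 the replication medians are -0.58 and -0.56 on days 5 and 7 and the mitosis medians -0.39 and -0.96. The lowest mitosis point is Plk1 (-2.30 on DN3 day 7).

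Levels also fell with time in both genotypes between days 5 and 7, the 2 days on which cells were sorted alike. In DN3, 34 of 43 genes were lower on day 7 in controls and 33 in floxed cultures, with 0 higher, where 9.73% and 10.9% of all genes were lower and 10.5% and 13.6% higher. In DN1 the counts were 18 in controls and 25 in floxed cultures, again with 0 higher, where 6.65% and 9.47% of all genes were lower and 6.45% and 12% higher. In DN3 controls the 12 largest falls were those of Dut (-1.07), Mcm7 (-1.05), Mcm2 (-0.996), Pole (-0.96), Pcna (-0.95), Uhrf1 (-0.95), Rpa1 (-0.94), Pold1 (-0.93), Mcm6 (-0.90), Rfc4 (-0.89), Rrm2 (-0.86) and Gins1 (-0.83). In DN3 floxed cultures they were Tk1 (-1.06), Prim2 (-0.98), Lig1 (-0.97), Gins1 (-0.94), Mcm10 (-0.92), Tyms (-0.90), Mcm7 (-0.87), Rfc4 (-0.87), Dut (-0.87), Uhrf1 (-0.83), Rfc5 (-0.82) and Pole (-0.79). Median changes were -0.65 in controls and -0.60 in floxed cultures, and whether the fall differed between genotypes was not tested. Single genes had unlike values: Prim2 was at 43.4 and 40.3 CPM and then 40.05 and 41.46 in controls (-0.09, not passing) against -0.98 in floxed cultures, and Lig1 changed by -0.56 and -0.97. Without floxed a of day 5 the DN3 floxed count was 19 and the median -0.53, and without floxed b of day 5 the median was -0.76.

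DN1 controls fell most for Gins2 (-0.82), Dut (-0.66), Mcm2 (-0.62), Rpa2 (-0.61), Tk1 (-0.57), Mcm4 (-0.55), Lig1 (-0.54), Mcm5 (-0.54), Mcm10 (-0.52), Pold2 (-0.48), Rrm1 (-0.47) and Rrm2 (-0.45). Their count of 18 dropped to between 7 and 9 when any 1 of the 4 libraries was left out: 7 without c of day 5 or of day 7, 9 without d of day 5 and 8 without d of day 7. DN1 floxed cultures fell most for Fen1 (-1.15), Mcm4 (-0.83), Pola2 (-0.80), Rrm1 (-0.78), Lig1 (-0.72), Gins2 (-0.68), Cdt1 (-0.67), Rfc5 (-0.67), Dut (-0.66), Gins1 (-0.63), Mcm6 (-0.62) and Mcm2 (-0.61), and their count was 15 without floxed a of day 5. Some genes with large falls in DN3 controls did not pass in DN1 controls, Rpa1, Pole and Pold1 among them. Rpa1 was at 146 and 152 CPM there on day 5 and 150 and 145 on day 7, Pole at 17.9 and 19.0 and then 19.0 and 17.4, and Pold1 at 67.9 and 71.2 and then 68.1 and 66.3. Whether the fall differed between precursors was not tested.

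Without deletion, DN3 controls held more of these transcripts than DN1 controls on day 5. There, 20 genes were higher and 3 lower in DN3, where 14.5% of all genes were higher and 15.5% lower, and the median difference was 0.37. Uhrf1 was at 554 and 594 CPM in DN3 against 272 and 272 in DN1 (1.06), and Rrm2 at 385 and 420 against 192 and 204 (1.004). The other large differences were Pole (0.97), Pold1 (0.93), Tyms (0.88), Fen1 (-0.79), Rfc4 (0.75), Pcna (0.75), Prim2 (0.69), Gins3 (0.65), Gins2 (-0.54) and Pold2 (0.52). Fen1 and Gins2, with Mcm3, were the 3 genes lower in DN3. By day 7 the count was 6 higher and 3 lower, where 11.2% and 11.4% of all genes were, with a median of 0.00. They were Prim2 (0.65), Rrm2 (0.60), Pold2 (0.46), Tyms (0.43), Lig1 (0.43) and Uhrf1 (0.42), and Mcm6 (-0.42), Rpa1 (-0.36) and Mcm3 (-0.31). Leaving out DN1 control d gave 13 genes on day 5 and 3 on day 7, and 4 and 5 genes passed on day 7 without DN1 control c and DN3 control d. The 3 red cell markers summed to 267 and 373 CPM in DN1 controls on day 5 against 2.59 and 0.808 in DN3 controls, and their part was not tested.

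ILC2 of dKO thymus held less of these transcripts than the floxed cultures of day 7, and not evenly. Their sums were 1445 and 1571 CPM, or 3199 and 3274 CPM with mitochondrial ribosomal RNA left out of the total. Against DN1 floxed day 7, 26 of the 43 genes were lower and 9 higher, where 40.1% of all genes were lower and 33.6% higher. Against DN3 floxed day 7, 24 were lower and 11 higher, where 38.8% were lower and 33.0% higher. The median differences were -1.08 and -0.76, beside -0.26 and -0.20 over all genes, and scaling by DESeq2 size factors moved the all-gene medians to 0.00 and 0.03 and the counts to 22 lower and 13 higher, and 22 lower and 14 higher. These cells came straight from mice and the cultures from a dish, with plck-Cre against R26-CreERT2, and these differences cannot be told apart.

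All 6 MCM genes were lower in thymic ILC2. Mcm3 was at 30.5 and 20.8 CPM against 328 and 333 in DN3 floxed day 7, a log2 difference of -2.93 ± 0.15 (edgeR adjusted p = 1.4e-13), and -3.25 against DN1. Pold2 was at 2.82 and 2.49 CPM against 51.3 and 41.2 (-3.37 against DN3 and -3.51 against DN1), and Cdt1 at 6.70 and 10.8 CPM against 115 and 96.1 (-2.89 and -3.25). Further large differences against DN3 and DN1 were those of Pold1 (-2.67 and -3.15), Dut (-2.46 and -2.70), Rpa2 (-2.26 and -2.85), Mcm2 (-2.16 and -2.32), Mcm7 (-2.13 and -2.74), Cdc6 (-2.12 and -2.58), Lig1 (-2.10 and -2.45) and Mcm5 (-1.56 and -2.30). In the opposite direction, Pole was at 42.2 and 45.7 CPM against 11.2 and 11.4 (2.69 and 1.84), and Prim1 at 68.4 and 45.9 against 19.97 and 20.98 (2.24 and 1.94). Prim2 was higher too (1.98 and 1.70). Rpa3 was higher against DN1 (2.75 ± 0.74), where it was at 3.34 and 2.66 CPM, and its difference of 1.10 ± 0.67 against DN3 did not pass. For some of the higher calls the direction rests on the scaling between libraries, whose lowest factor was 0.550. CPM count mitochondrial ribosomal RNA in the total, 54.8% and 52.0% in thymic ILC2 against 0.702% to 1.14% in floxed cultures of day 7. The CPM of thymic ILC2 thus run low beside those of the cultures, and single genes were not recomputed without this RNA. In CPM, Pcna was lower in thymic ILC2, at 131 and 158 against 185 and 175 in DN3 floxed day 7, while the scaled log2 difference was 0.41. Rrm2 was likewise lower in CPM, at 98.8 and 108 against 134 and 141, with a scaled difference of 0.31. Mean CPM ran opposite to the call for 5 of the 11 higher calls against DN3 (Pola1, Pcna, Rrm1, Rrm2 and Tyms) and for 2 of the 9 against DN1 (Gins3 and Rrm1), and for 0 of the lower calls. Against DN1 the scaled differences of Pcna and Rrm2, 0.27 and 0.00, did not pass.

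The differences followed the base composition of the transcripts. Across the 43 genes the log2 difference and transcript GC content had a Spearman correlation of -0.73 against DN1 and -0.71 against DN3, and of -0.39 and -0.38 across all genes, where genes share libraries and are not independent. In the floxed against control comparisons of DN3 the values were -0.10 and -0.08 on days 5 and 7. With the length of the longest transcript, the correlation across all genes was 0.31 against DN1 and 0.33 against DN3. For DN3 floxed against control it was 0.05 and -0.02 on days 5 and 7. Across the 43 genes, length gave -0.13 against DN1 and -0.06 against DN3, and no correction for length was made. With offsets corrected for GC content, the counts were 25 lower and 8 higher against DN1 and 17 lower and 8 higher against DN3, with medians of -0.60 and -0.34. Against both cultures, 16 genes were lower under the main scaling, the GC correction and a fit of nuclear protein-coding genes alone, among them the 6 MCM genes, Cdc6, Cdt1, Pold1, Pold2, Lig1 and Dut. Likewise 6 were higher under all: Orc1, Pole, Pole2, Prim1, Prim2 and Rfc4. In CPM, the thymic libraries overlapped those of DN3 floxed day 7 for Orc1 (22.4 and 12.7 against 12.2 and 14.5) and Pole2 (24.2 and 37.1 against 24.7 and 23.7). The share of all genes that passed under all these settings is not given here. The counts of 16 and 6 can therefore not be read as particular to the 43 genes. For 3 genes, picked out after their values were seen, the GC correction turned a call around. Against DN1, Gins2 went from -0.62 to 0.59 and Rrm1 from 0.37 to -0.37, and against DN3, Pola1 went from 0.55 to -0.43. The higher calls of Pcna and Rrm2 against DN3 were lost with it (0.07 and 0.09). For DN3 floxed against control the GC correction gave 34 and 26 genes lower and 0 higher on days 5 and 7.

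**Figure D5:**
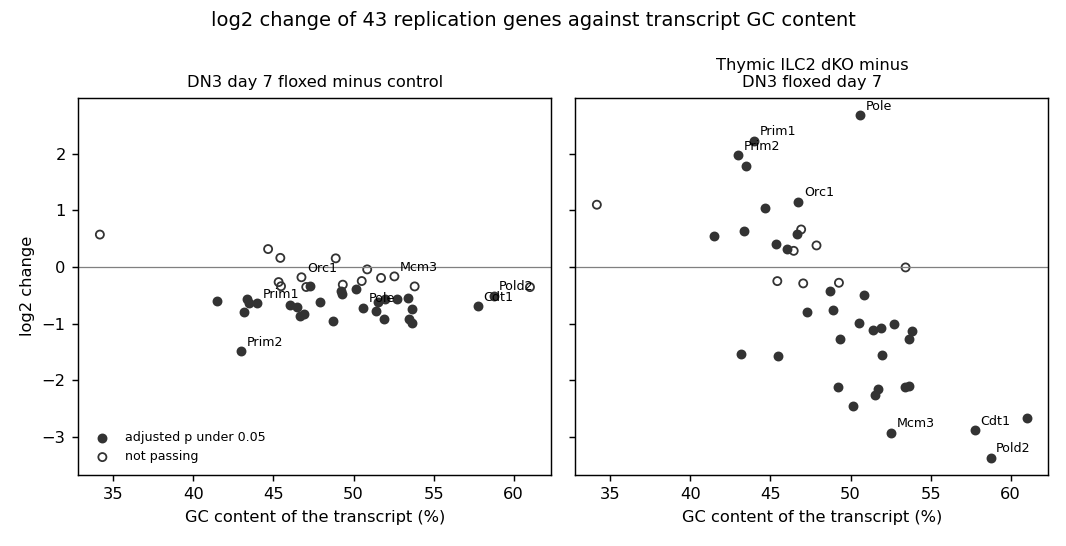
log2 change (y axes) of the 43 genes against transcript GC content (x axes, percent), for DN3 floxed minus control on day 7 (left) and thymic ILC2 minus DN3 floxed day 7 (right), filled where the adjusted p was under 0.05. Points slope downward on the right (Spearman -0.71) and are near level on the left (-0.08).

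Mitosis genes in thymic ILC2 did not go with replication genes. They summed to 7439 and 5846 CPM, and the ratio of the mitosis sum to the replication sum was 5.15 and 3.72, against 0.514 to 0.887 in the cultures and 0.333 to 0.845 in lung ILC2. Mki67 made up much of that sum, at 4144 and 2727 CPM, and without it the ratio was 2.28 and 1.98, against 0.480 to 0.826 in the cultures and 0.232 to 0.591 in lung ILC2. Against DN3 floxed day 7, 11 of the 20 were higher and 5 lower, where 33.0% of all genes were higher and 38.8% lower. Mki67 was at 3436 ± 1002 CPM (SD, n = 2) against 180 ± 8.92 (5.01 log2), and Kif11 (3.25), Cenpe (3.28), Cenpf (3.06) and Bub1 (3.53) were also higher. In contrast Cdk1, the kinase that starts mitosis, was at 30.4 ± 13.9 CPM against 301 ± 38.7 (-2.61), and Birc5 (-3.58), Cdc20 (-2.19), Aurka (-2.29) and Plk1 (-2.18) were lower. E2f1 was at 0.768 ± 0.0881 CPM against 45.7 ± 5.80 (-5.15). Members of 1 list that are all known from dividing cells thus stood on opposite sides. Whether GC content or transcript length accounts for their split was not tested.

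Lung ILC2 had the lowest levels of all groups. The 43 genes summed to 554 and 420 CPM in dKO and 477, 435 and 592 CPM in Id1 lung, so the groups overlapped. Of the 42 genes tested, 1 was higher and 0 lower in dKO, where 14.4% of all genes were higher and 3.66% lower. The gene was Rpa3, at 11.9 and 17.3 CPM in dKO against 0.995, 2.27 and 1.87 in Id1 (3.16 ± 0.88; edgeR over 19371 genes). It did not pass without dKO replicate 3, Id1 replicate 1 or Id1 replicate 3, and DESeq2 called 3 genes, 1 higher and 2 lower. Only 3 of the 42 had an unadjusted p under 0.05, and the coefficient of variation between replicates in this fit was 0.706 against 0.138 in the cultures. What size of difference this fit could detect was not tested. The dKO libraries held fewer counts, 5627406 and 3695522 against 9671437 to 13065445 in Id1. More genes had a count in them, 29734 and 30196 against 22504 to 24722. The part of this library difference in the calls, that of Rpa3 included, was not tested. Fen1 had no count in the 3 Id1 libraries or in dKO replicate 3, which allows up to 3 counts in each (0.230 to 0.812 CPM), and was at 1.42 CPM in dKO replicate 1. Pcna, at 48.3 and 18.1 CPM in dKO against 32.0, 53.2 and 42.4 in Id1, was among the higher of the genes here, with Rrm1 at 46.2 and 69.3 against 50.9, 45.4 and 58.1. The MCM genes lay between 1.08 and 49.9 CPM in the 5 libraries.

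Some of the 43 genes share their place in the genome with another gene, and whether strand was used in counting is not given in the sources used here. Mcm7 overlaps Cops6 and Ap4m1, Orc6 overlaps Vps35, Cdt1 and Gins2 overlap Gm20388, Fen1 overlaps Tmem258, Lig1 overlaps Zswim9, Chaf1a overlaps Ubxn6, Cdc45 overlaps Ufd1, Rfc2 overlaps Lat2, Rfc4 overlaps Eif4a2, Rfc5 overlaps Wsb2, and Tk1 overlaps Afmid. Gins2 also overlaps Gse1, and Tk1 also overlaps Gm20708. Pseudogenes of Pcna and Tyms are annotated, and reads could be split between copy and gene. Tyms-ps held at most 0.868 CPM in the thymus table, but Pcna-ps2 held 56.2 to 212 CPM in the cultures, so the level of Pcna is uncertain. Pcna-ps2 itself had floxed minus control values of -0.49 ± 0.24 and 0.01 ± 0.24 in DN3 on days 5 and 7, and neither passed. It did pass in thymic ILC2, with differences of -3.32 ± 0.34 against DN1 and -3.75 ± 0.34 against DN3 floxed day 7. It passed too for DN3 against DN1 controls on day 5 (0.67). From day 5 to day 7 it passed in DN3 controls (-0.996) and DN1 floxed cultures (-0.79). The Pcna differences in these comparisons are therefore uncertain as well.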

How the data were processed

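RNA-seq was made from 31 libraries of total RNA in 15 groups, with group and replicate taken from titles and labels. The authors deposited raw counts per gene, in 1 table for thymus and cultures and 1 for lung. The submitters' processing notes name mm10 and DESeq2, and no source used here gives the aligner, counter or annotation. Of 48881 gene identifiers, 48578 were named from GENCODE M21. Totals of 3695522 to 13065445 counts per library set the precision of low genes.

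From the deposited counts, CPM over the library total and CPM per kilobase of exon were computed in Python 3.11.15 with pandas 2.3.3. Tests used edgeR 4.0.16 in R 4.3.3: TMM scaling, filterByExpr with a minimum count of 10, quasi-likelihood F tests and Benjamini-Hochberg adjustment over all genes of a fit, called at an adjusted p under 0.05. The 24 cultures were fitted together, thymic ILC2 with them in a second fit of 26 libraries, and the 5 lung libraries alone. Log2 changes are the fit's, with standard errors (SE). In counts simulated for the DN3 day 7 comparison (14288 genes), 200 genes were changed. Of these, 78% of 2-fold and 100% of 4-fold changes were recovered, with 6 false calls. Every simulated gene had the same relative spread between libraries, unlike the data, and changed genes were not drawn from the lowest levels. The recovery therefore does not speak for genes with a wider spread, such as Fen1 and Rpa3. The simulation held far fewer changed genes than the data, where 1816 genes were lower and 1959 higher. Changes under 2-fold were not simulated, while the median log2 change of the replication genes was -0.56. Recovery of changes of that size was therefore not tested.

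Named genes were, in each comparison, up to 12 past the threshold with the largest change, 12 followed in the 6 floxed against control comparisons, and the highest and lowest per kilobase. The other genes of the 43 are given by role. The genes and lists were chosen with earlier results of these data known. Alternatives were DESeq2 1.42.0, its size factors in edgeR, no filter, only the libraries compared, a replicate block and each library left out. Fits of nuclear protein-coding genes and with GC-corrected offsets were added after seeing the data. No label says that replicates came from separate animals, so p-values measure the spread between these libraries, which may be technical. Mesenteric lymph node samples named in the design text were not analysed here.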

Additional observations from a re-analysis of the deposited data

Results flagged for a closer look

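Effects of the floxed alleles that differed between days or between precursors, by a test of the difference itself in edgeR, are listed here with their log2 values, and no explanation was weighed. From day 4 to day 7 the floxed minus control difference changed for 3 genes in DN1: Orc1 (-0.77), Cdt1 (-0.71) and Rfc5 (-0.56). Of all genes, 3.61% were lower and 4.17% higher. The DN1 count moved with single libraries, as given above, and was 1 with a replicate block. In DN3 the difference changed for 17 genes, where 6.28% of all genes were lower and 6.02% higher. The 12 largest were Prim2 (-1.35), Lig1 (-1.07), Rfc5 (-0.96), Mcm10 (-0.86), Tk1 (-0.86), Gins2 (-0.78), Rfc3 (-0.75), Tyms (-0.73), Chaf1a (-0.71), Uhrf1 (-0.70), Rfc1 (-0.70) and Cdt1 (-0.67). Cdt1 and Rfc5 appear for both precursors, and no test of this overlap was made.

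Between precursors, DN3 minus DN1, the difference passed for 7 genes on day 5: Rrm2 (-0.91), Uhrf1 (-0.85), Rpa1 (-0.84), Tyms (-0.82), Cdc6 (-0.79), Mcm7 (-0.79) and Mcm10 (-0.75). The shares of all genes were 0.685% lower and 0.679% higher on day 5, and 3.81% lower and 3.98% higher on day 7. On day 7 the difference passed for 15 of the replication genes, the largest being Tk1 (-1.03), Pole (-0.96), Prim2 (-0.93), Rrm2 (-0.91), Tyms (-0.89), Mcm10 (-0.86), Lig1 (-0.78), Uhrf1 (-0.77), Gins2 (-0.74), Mcm5 (-0.74), Chaf1a (-0.68) and Cdc6 (-0.60). For Rpa1 the value of day 5 joins a higher level in floxed DN1 with a lower one in floxed DN3 that did not pass by itself.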

How the results depend on the processing

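Counts of the 43 genes called moved by over 1.5 times under few alternatives that keep every library. Shares of all genes called under the alternatives are not given here, so the counts below stand without them. With only the libraries compared, DN1 day 7 gave 0. The DN1 change from day 4 to day 7 gave 5 with no filter and 1 with a replicate block. DESeq2 gave 14 for the DN3 minus DN1 difference on day 5 and 3 in lung. Leaving out each library in turn gave, for floxed against control, 0 to 0 genes on day 4 in DN1 and in DN3, 0 to 1 in DN1 on day 5, 1 to 20 in DN1 on day 7, 15 to 24 in DN3 on day 5 and 19 to 26 in DN3 on day 7. For the change from day 4 it gave 0 to 14 in DN1 and 9 to 17 in DN3. For day 7 against day 5 it gave 7 to 9 in DN1 controls, 15 to 23 in DN1 floxed, 23 to 31 in DN3 controls and 19 to 31 in DN3 floxed cultures. For DN3 against DN1 controls it gave 13 to 21 on day 5 and 3 to 6 on day 7, and for the DN3 minus DN1 difference 4 to 8 and 7 to 22. For thymic ILC2 it gave 33 to 36 against DN1 and 32 to 37 against DN3, and 0 to 2 in lung. Among values of named genes, 1004 stayed passing or not passing under the other alternatives, 25 lost the call and 2 gained it. None of those that passed in the main fit or the alternative turned direction. For values that passed in neither, direction was not compared. The 3 thymic ILC2 calls that the GC correction turned around (Gins2, Rrm1 and Pola1) lie outside these named values. With a library left out these numbers were 846, 178 and 5.

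No label ties a replicate letter to an animal or a batch. Same-letter deviations correlated at 0.12 to 0.14 between the days of DN3 floxed cultures and at -0.12 to 0.13 within the other precursors and genotypes. No paired analysis was possible for floxed against control because the genotypes share no letters. With a replicate block elsewhere, 18 genes were called in DN1 controls, 24 in DN1 floxed, 34 in DN3 controls and 32 in DN3 floxed cultures for day 7 against day 5, 17 for the DN3 change, 23 and 9 for DN3 against DN1 controls, 7 and 13 for the DN3 minus DN1 difference, and 1 in lung. In lung, DESeq2 size factors moved the median of all genes from 0.16 to 0.38. Groups of 2 or 3 libraries and the low counts of ILC2 libraries limit what could be called.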
